A study of Mus musculus with 8 samples.

Results

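The genes examined were 9 cell adhesion molecules taken by name from the count table: Vcam1, Icam1, Jaml, F11r, Cxadr, Alcam, Epcam, Ceacam1 and Ceacam20. They are 9 of the 54532 genes listed, and all 9 passed the filter on low counts and were among the 9971 genes tested. Vcam1 and Icam1, with 0 counts in every control library, passed this filter through the RANKL libraries alone. Expression was measured by 3′ mRNA sequencing in mouse intestinal organoids, which are epithelial structures grown from crypts without the stroma of the tissue, in 4 control libraries and 4 libraries of organoids treated with RANKL, the ligand of the receptor RANK. According to the study's methods, mouse organoids were kept in a medium with EGF, NOGGIN and R-spondin, shared by both groups, and the comparison asks which transcripts RANK stimulation changes in the epithelium. The study states only a broad age range for its mice. How much RANKL was given to these cultures and for how long, and the culture or animal behind each replicate, are not given in the sources used here, so the p-values measure only the spread between these libraries.

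Adhesion molecules of the immunoglobulin superfamily carry folded immunoglobulin domains outside the cell, through which they bind each other, integrins or pathogens. In the gut epithelium, some of them sit at tight and adherens junctions and seal neighbouring cells together, whereas others are displayed to leukocytes that crawl along or between epithelial cells. Epcam is grouped here as an epithelial adhesion molecule, although the EPCAM protein has no immunoglobulin domain.

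Total counts ran from 583663 in control replicate 4 to 7807298 in control replicate 1, a 13.4-fold span, and the controls together were 2.81 times as deep as the RANKL libraries. A single count was worth between 0.128 and 1.71 CPM, that is, counts scaled to 1e6 per library. Levels below are CPM after scaling by the TMM method, which corrects for differences in composition between libraries. Since each transcript was read near its 3′ end, CPM was taken as a level per transcript without division by length. Of 7 epithelial markers, all 7 were tested, with 3 lower and 0 higher, beside 12.4% lower and 13.6% higher of all genes tested. Their summed levels were 6012 to 7102 CPM in control and 5582 to 6264 CPM in RANKL libraries. Of 8 immune markers 0 passed the filter on low counts, with sums of 3.44 to 9.93 CPM and 4.13 to 9.69 CPM, and Cd3e, Cd79a, Itgax and Tyrobp had 0 counts in every library. Of 6 endothelial markers 0 passed as well, at 1.77 to 3.44 CPM and 1.10 to 2.09 CPM, with Cdh5, Kdr and Tie1 at 0. Fibroblast and smooth muscle markers, 8 in all with 0 tested, summed to 2.29 to 15.5 CPM and 3.13 to 6.46 CPM, with Dcn at 0. Markers of M cells, the antigen-sampling epithelial cells, rose in 7 of the 7 tested out of 8, from a sum of 54.1 to 60.6 CPM to a sum of 1876 to 2132 CPM, while Gp2 stayed at 0 counts. Most of the sum with RANKL was Spib, which went from 4.35 ± 1.42 to 1607 ± 124 CPM (SD, n = 4 each), and the other 6 tested markers had RANKL means of 10.6 to 97.6 CPM. Their part in the changes of the adhesion genes was not tested.

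RANKL-treated organoids expressed the leukocyte-binding molecules Vcam1 and Icam1, for which control organoids had no count at all. Among junctional members, F11r rose 2.09-fold and Jaml fell 3.40-fold. Cxadr, Alcam, Epcam, Ceacam1 and Ceacam20 did not pass the test. Thus 4 of 9 members were called in edgeR at an adjusted p of 0.05, 3 higher and 1 lower, beside 25.9% of all genes tested, 13.6% higher and 12.4% lower. The median log2 fold change of the members was 0.17, against 0.00 over all genes tested. The members were chosen with earlier results of these data known, and Vcam1 and Icam1 passed the filter only through the RANKL libraries. The 4 calls held in every alternative fit in which the gene could be tested, which is 16 of 16 for Jaml and F11r and 15 of 15 for Vcam1 and Icam1.

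**Figure D1:**
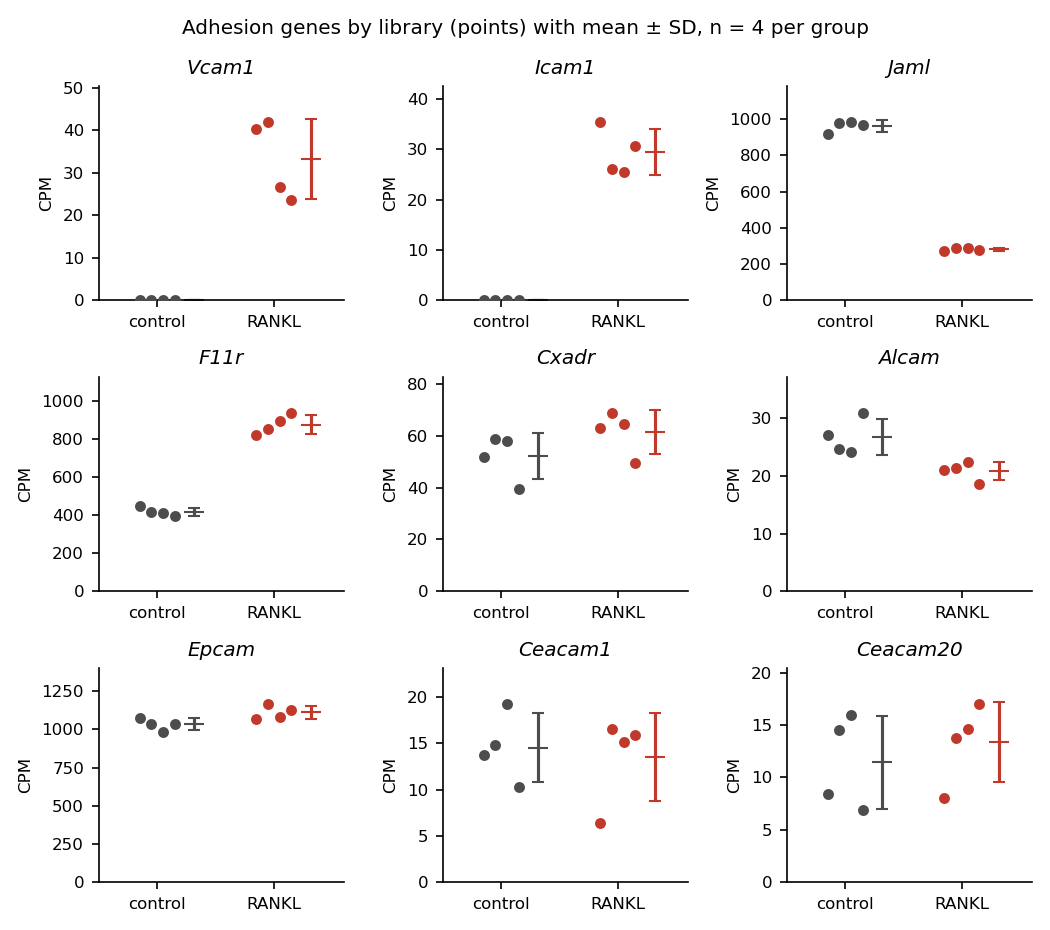
Level of each adhesion gene in CPM (vertical axes, starting at 0, each with its own scale) in the 4 control and 4 RANKL libraries. Points are libraries and the bars beside them give the mean ± SD. Vcam1 and Icam1 lie at 0 in all control libraries, Jaml drops from about 962 to 282 CPM without overlap, and F11r climbs from 418 to 876 CPM.

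Vcam1 encodes the ligand of the integrin α4β1 and is best known from inflamed endothelium, where it arrests lymphocytes and monocytes. In the annotation on GRCm38 it lies on the minus strand of chromosome 3, from 116109949 to 116129688. It had 0 counts in each of the 4 control libraries, out of 16214577 counts in all. The RANKL libraries held 25, 61, 51 and 43 counts, or 40.4, 42.0, 26.6 and 23.6 CPM in replicates 1 to 4, with a mean of 33.1 ± 9.38 CPM (SD, n = 4). All 4 RANKL libraries were thus above all controls. Taking 3 counts in the pooled controls as the floor, equal to 0.186 CPM, Vcam1 in the pooled RANKL libraries stood at 166 times that floor. This multiple leaves out counting error in the RANKL libraries. The exact 95% lower limit of the ratio of RANKL to control, which covers counting error only, was 134. The adjusted p was 1.1e-13 in edgeR, for a gene that passed the filter on low counts only through the RANKL libraries.

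Icam1 encodes a ligand of the β2 integrins LFA-1 and Mac-1 that neutrophils and lymphocytes use to adhere to endothelial and epithelial surfaces. It lies on the plus strand of chromosome 9, from 21015985 to 21028817. Control libraries again had 0 counts each. RANKL replicates 1 to 4 held 22, 38, 49 and 56 counts, which is 35.5, 26.2, 25.6 and 30.8 CPM and a mean of 29.5 ± 4.64 CPM (SD, n = 4). No RANKL library came near the controls, and the pooled RANKL level was 152 times the same floor. The lower 95% limit of the ratio was 123, and the adjusted p was 4.5e-14 in edgeR. Like Vcam1, Icam1 passed the filter on low counts only through the RANKL libraries. Within the RANKL group the levels of Vcam1 and Icam1 overlapped, and neither was among the most abundant members.

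The window around the annotated start of Icam1, from 250 bases before to 50 bases after it, is shown because this promoter is a textbook target of NF-kB, the transcription factor family that RANK activates. The sequence is that of RefSeq on GRCm38.p6, chr9:21015690-21015989 on the plus strand, written 5′ to 3′. Capitals mark, in order, GGAAATTCC (a variant NF-kB site), TTCCNGGAA (the spaced palindrome recognised by STAT factors) and TATAAA (the TATA box).
Icam1: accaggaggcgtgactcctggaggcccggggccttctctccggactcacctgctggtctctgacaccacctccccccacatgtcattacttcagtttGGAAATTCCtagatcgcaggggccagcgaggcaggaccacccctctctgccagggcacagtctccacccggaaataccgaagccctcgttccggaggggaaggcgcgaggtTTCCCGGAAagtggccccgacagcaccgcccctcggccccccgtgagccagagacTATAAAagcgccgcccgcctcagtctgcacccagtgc
GGAAATTCC spanned bases 153 to 145 before the RefSeq start and was found in 0.317% of the 32851 mouse windows of this length. TTCCNGGAA began 42 bases before that start and occurs in 1.15% of windows. TATAAA, held by 13.6% of windows, began 13 bases after the RefSeq start and 32 bases before the start of the GENCODE gene model. None of the 3 matches overlapped another. The 10-base NF-kB consensus, the only motif planned beforehand, had no match in the window, and the 3 motifs marked here were added later. All motifs were searched on both strands, and a match describes letters, not binding. Windows were at hand for 7 of the 9 members, that is, not for Vcam1 and Cxadr.

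Jaml encodes a junctional adhesion molecule-like receptor best known on neutrophils, monocytes and γδ T cells, which binds the CXADR protein on epithelial cells. It is carried by the plus strand of chromosome 9, from 45079183 to 45108534. Here it was among the most abundant members in epithelial organoids, with 915, 977, 986 and 968 CPM in control replicates 1 to 4, a mean of 961.5 ± 31.6 CPM (SD, n = 4). The RANKL replicates stood at 273, 289, 289 and 278 CPM, a mean of 282.3 ± 8.28 CPM (SD, n = 4). The lowest control library was thus far above the highest RANKL library, and the libraries within a group differed little. The log2 fold change was -1.76 ± 0.09 (SE), a 3.40-fold fall with a 95% interval of 2.98 to 3.88, and the adjusted p was 1.4e-15 in edgeR. Leaving out any 1 library gave -1.79 to -1.75. Only 8 of the 9971 genes tested had a lower log2 fold change than Jaml, and of the 2142 genes at a mean of at least 100 CPM, 0 did. In bulk RNA, fewer cells of a type and less RNA per cell cannot be told apart. Of the 8 immune markers, Csf1r held the most reads, with 93 counts over the control and 30 over the RANKL group (5.29 and 4.95 CPM). Cd68 had 43 and 4 counts (1.85 and 0.584 CPM), lower with RANKL as Jaml was, Lyz2 had 8 and 9 counts, Ptprc had 0 and 1, and the other 4 had none. Groups overlapped for Csf1r, Cd68 and Lyz2. Markers of intestinal stem cells moved in both directions, with 3 of 5 lower and 1 higher, beside 12.4% lower and 13.6% higher of all genes tested. Lgr5 fell by 2.22 on the log2 scale, Axin2 by 0.90 and Smoc2 by 0.76, whereas Ascl2 rose by 1.10 and Olfm4, at -0.18, did not pass the test (adjusted p 0.22, edgeR). Enterocyte markers had 1 of 7 higher and 1 of 7 lower. Paneth and goblet markers each had 1 of 5 lower and 0 higher, and enteroendocrine markers 1 of 5 higher and 0 lower. The part of these cell types in the fall of Jaml was not tested.

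The Jaml window is shown for comparison with Icam1, as the member that moved the other way (chr9:45078933-45079232, plus strand, RefSeq on GRCm38.p6). Capitals mark TATAAA and then a match to the 10-base NF-kB consensus, searched in a loose form that accepts any base at its 2 central positions.
Jaml: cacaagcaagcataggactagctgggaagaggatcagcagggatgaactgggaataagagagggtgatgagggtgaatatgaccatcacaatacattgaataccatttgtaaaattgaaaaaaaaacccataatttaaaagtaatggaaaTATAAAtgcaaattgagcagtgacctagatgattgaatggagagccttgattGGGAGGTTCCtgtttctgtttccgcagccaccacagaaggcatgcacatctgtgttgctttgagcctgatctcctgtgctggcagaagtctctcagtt
The NF-kB consensus lay from 48 to 39 bases before the start and is found in 8.46% of all windows, and TATAAA lay from 100 to 95 bases before it. Of the 2 NF-kB patterns searched, Icam1 held only the variant GGAAATTCC and Jaml only the 10-base consensus. The part of either site in the changes was not tested. No match to any of the 4 motifs was present in the windows of F11r, Alcam, Epcam, Ceacam1 and Ceacam20.

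F11r encodes JAM-A, a tight junction protein that pairs with itself on the neighbouring cell, recruits polarity proteins and limits the permeability of the epithelial sheet. The gene is on the plus strand of chromosome 1, from 171437535 to 171464603. Control replicates 1 to 4 had 447, 418, 412 and 396 CPM (418.2 ± 21.5, SD, n = 4). With RANKL the values were 823, 851, 892 and 938 CPM (876.3 ± 50.0, SD, n = 4), and the groups did not overlap. The log2 fold change was 1.06 ± 0.09 (SE), a fold of 2.09 with a 95% interval of 1.83 to 2.38 (adjusted p 1.6e-10, edgeR), and it ran from 1.03 to 1.10 when single libraries were left out.

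**Figure D2:**
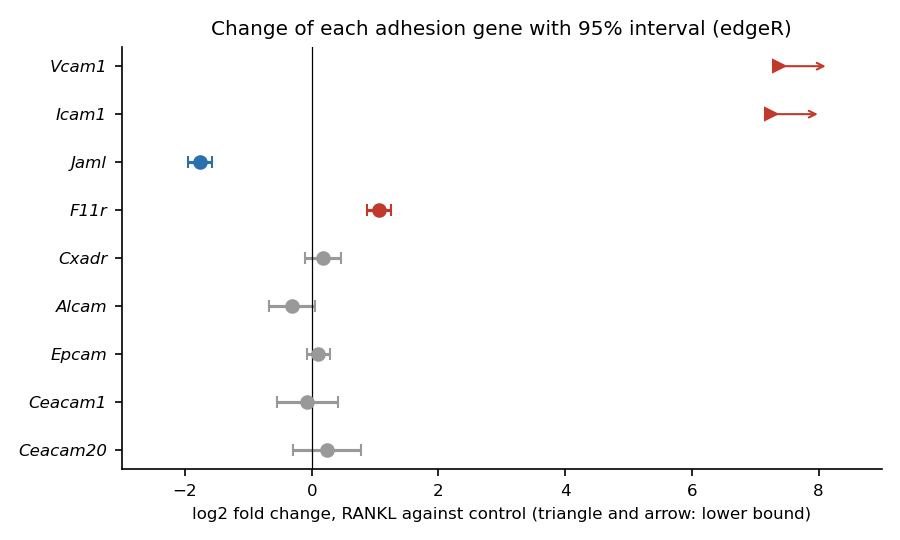
Log2 fold change of each adhesion gene, RANKL against control (horizontal axis), with the edgeR estimate as a point and its 95% interval as a bar, red for higher, blue for lower and grey for genes not past the threshold. Triangles with arrows mark Vcam1 and Icam1, whose controls held 0 counts, at their fold over a floor of 3 counts in the pooled controls. The axis label calls these lower bounds, but the exact 95% lower limits are smaller, at folds of 134 and 123. Jaml sits at -1.76 and F11r at 1.06, and the 5 grey intervals all include 0.

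The other junctional members changed less, if at all. Cxadr encodes the coxsackievirus and adenovirus receptor, a tight junction protein and the epithelial partner of JAML. Its levels were 51.8, 58.8, 58.0 and 39.6 CPM in control replicates 1 to 4. RANKL replicates had 63.0, 68.8, 64.7 and 49.4 CPM. The ranges overlapped, and the log2 fold change of 0.17 had a 95% interval of -0.11 to 0.46 (adjusted p 0.40, edgeR). A fall of the size seen for Jaml is outside this interval, but a modest change in either direction is not.

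Alcam, also called CD166, binds itself and the T cell receptor CD6 and marks crypt cells in the gut. Control replicates 1 to 4 stood at 27.1, 24.7, 24.1 and 31.0 CPM, against 21.0, 21.3, 22.4 and 18.7 CPM with RANKL. Every RANKL library was below every control library, and the exact two-sided permutation test gave p = 0.0286, the smallest that its 70 assignments allow. The edgeR test did not pass, with a log2 fold change of -0.31, a 95% interval of -0.68 to 0.05 and an adjusted p of 0.21. Including Alcam, groups did not overlap for 5 of the 9 members, beside 24.6% of all genes tested, 13.1% with RANKL above and 11.5% below.

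Epcam encodes an epithelial surface protein that stabilises claudins and modulates contacts between epithelial cells. It was the most abundant member by mean in both groups, with 1075, 1037, 981 and 1035 CPM in control and 1067, 1167, 1081 and 1124 CPM in RANKL replicates 1 to 4. The ranges overlapped (exact two-sided permutation p = 0.0571), and the log2 fold change was 0.11 with a 95% interval of -0.08 to 0.29 (adjusted p 0.42, edgeR). The interval reaches a fold of 1.22 upwards.

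Ceacam1 and Ceacam20 belong to the carcinoembryonic antigen family of apical glycoproteins. CEACAM1 is an inhibitory receptor that binds itself, and CEACAM20 is found on the microvilli of intestinal epithelial cells. Ceacam1 ran from 10.3 to 19.3 CPM in control libraries and from 6.46 to 16.5 CPM in RANKL libraries, with a log2 fold change of -0.07 and an interval of -0.55 to 0.41 (adjusted p 0.86, edgeR). Ceacam20 ran from 6.88 to 16.0 CPM and from 8.07 to 17.0 CPM, with 0.24 and an interval of -0.30 to 0.77 (adjusted p 0.56, edgeR). Both rested on few reads, since the shallowest control library held 6 and 4 counts of them and the shallowest RANKL library 4 and 5, and the sign of neither estimate was stable when single libraries were left out.

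By mean level, the order of the members in control organoids was Epcam (1032 CPM), Jaml (961.5 CPM), F11r (418.2 CPM), Cxadr (52.0 CPM), Alcam (26.7 CPM), Ceacam1 (14.5 CPM) and Ceacam20 (11.4 CPM), followed by Icam1 and Vcam1 at 0. Among these neighbours, Epcam and Jaml overlapped between libraries, as did Ceacam1 and Ceacam20. With RANKL the order was Epcam (1110 CPM), F11r (876.3 CPM), Jaml (282.3 CPM), Cxadr (61.5 CPM), Vcam1 (33.1 CPM), Icam1 (29.5 CPM), Alcam (20.9 CPM), Ceacam1 (13.5 CPM) and Ceacam20 (13.4 CPM). Here the ranges of Vcam1 and Icam1 overlapped, and again those of Ceacam1 and Ceacam20.

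Although single members changed strongly, the summed level of the family did not separate the groups. The 9 genes summed to 2516 ± 29.0 CPM in control and 2440 ± 74.5 CPM in RANKL libraries (SD, n = 4 each), with overlapping ranges of 2487 to 2544 and 2338 to 2496 CPM. Within this sum the share of Jaml went from 36.1 to 39.5% in control libraries to 11.1 to 11.9% in RANKL libraries. The share of F11r moved the other way, from 15.9 to 17.6% up to 34.1 to 37.6%. The ratio of Jaml to F11r reads, which does not depend on scaling between libraries, was 2.31 ± 0.179 in control and 0.323 ± 0.0188 in RANKL libraries (SD, n = 4 each). Jaml reads thus outnumbered F11r reads in all 4 control libraries and were outnumbered in all 4 RANKL libraries. Vcam1 and Icam1 made up 1.36% and 1.21% of the family's reads on average with RANKL.

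**Figure D3:**
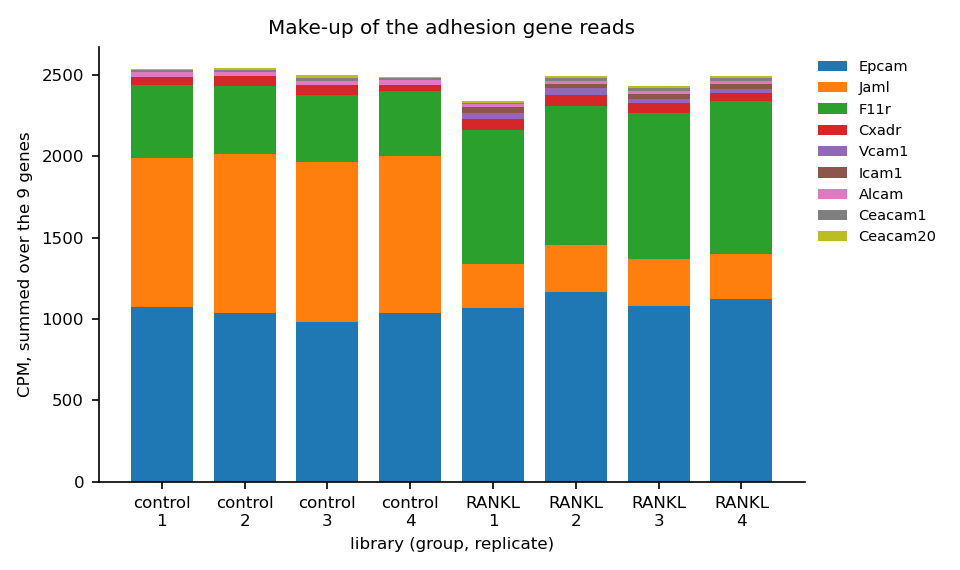
Summed level of the 9 adhesion genes in CPM (vertical axis, from 0) for each of the 8 libraries, with the segments of a bar giving the single genes. The bar heights stay between 2338 and 2544 CPM, while the Jaml segment shrinks and the F11r segment widens in every RANKL library.

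Other Ig-family adhesion genes of junctions and epithelia were read from the same fit. This list and those below were written with earlier results of these data known. Of 29 listed, 17 were tested, 8 rose and 1 fell, beside 13.6% higher and 12.4% lower of all genes tested. The median log2 fold change was 0.45, against 0.00 over all genes. The nectins, which bridge neighbouring cells at adherens junctions, did not move together. Nectin2 rose from 227.2 ± 12.6 to 588.3 ± 26.7 CPM (SD, n = 4 each), with an estimate on the log2 scale of 1.37 ± 0.09 (SE), and Nectin1 from 19.4 ± 3.99 to 56.2 ± 8.89 CPM, or 1.46 ± 0.17. Nectin3, in contrast, fell from 142.9 ± 10.5 to 84.7 ± 12.1 CPM, or -0.76 ± 0.12. Groups did not overlap for any of the 3, beside 24.6% of all genes tested. Nectin4 had 7 and 1 counts over the control and RANKL groups and was not tested.

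Bcam, a laminin receptor, had the largest estimate of the list at 2.18 ± 0.35 (SE), but at 1.94 and 8.90 CPM in the group means. Cd47, the signal that restrains engulfment by phagocytes, rose from 78.7 ± 10.6 to 205.9 ± 8.92 CPM (SD, n = 4 each), or 1.34 ± 0.11 (SE). Vsig10 rose by a log2 fold change of 1.77 ± 0.16 (SE). L1cam, first known from growing axons, rose by 1.63 ± 0.17, with the limit that its exons overlap those of Arhgap4 on the same strand. Igsf9 also rose, by 0.73 ± 0.10. Pvr, a nectin-like receptor, was called at 0.59 ± 0.22 with an adjusted p of 0.050 in edgeR, its groups overlapped, and the call was lost in 10 of 15 alternatives, among them those without control replicate 1 or 4 or without RANKL replicate 1, 2 or 3. Nectin3, Igsf9 and Pvr were named after their values were seen. The other JAM genes, Jam2 and Jam3, had 1 and 0 counts over all libraries.

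Close relatives of Icam1 and Vcam1 had few counts in either group. Of 5 vascular and leukocyte genes of the ICAM type, 0 passed the filter on low counts. Icam4 had 11 counts over the control and 20 over the RANKL group, Icam2 1 and 0, Icam5 4 and 1, Madcam1 0 and 1, and Pecam1 20 and 4. Only for Icam4 did the libraries of the groups not overlap in CPM, at 0.523 ± 0.485 against 3.11 ± 1.38 CPM (SD, n = 4 each). RANKL replicate 1 held 1 count of it, and groups did not overlap for 24.6% of all genes tested. Icam4 begins 0.6 kb beyond the end of Icam1 on the same strand. Of 13 other CEACAM genes, 8 had 0 counts throughout and 1 was tested, Ceacam18, at 8.59 ± 0.520 and 12.2 ± 2.31 CPM (SD, n = 4 each) with a log2 fold change of 0.47 ± 0.25 (SE) and an adjusted p of 0.18 in edgeR. Ceacam2, the near-identical copy with which Ceacam1 could share reads, had 0 and 2 counts.

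EPCAM acts in the membrane with claudin-7 and with the protease matriptase and its inhibitors, and these partners changed in both directions while Epcam did not pass the test. Of 5 listed genes 4 were tested. Cldn7, the claudin, fell by 0.53 on the log2 scale, from 1451 ± 173 to 1012 ± 109 CPM (SD, n = 4 each). St14, which encodes matriptase, fell from 192.0 ± 10.2 to 148.8 ± 14.3 CPM, or -0.38 ± 0.11 (SE). Both genes of the Kunitz-type inhibitors of matriptase rose, Spint1 from 198.6 ± 15.04 to 278.7 ± 25.9 CPM and Spint2 from 96.8 ± 37.1 to 179.8 ± 20.2 CPM, which is 0.48 ± 0.10 and 0.90 ± 0.17 (SE). Groups did not overlap for any of the 4 genes, beside 24.6% of all genes tested. All 4 were called, beside 25.9% of all genes tested.

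Of 25 counter-receptors and cytoplasmic partners of the members, 12 were tested, 1 rose and 1 fell, beside 25.9% of all genes called in either direction, and the median log2 fold change was 0.07. The leukocyte integrin genes, among them those for receptors of ICAM1 and VCAM1, had too few counts to be tested. Itgb2, Itgax and Itgad had 0 counts, Itgal had 3 and 0, and Itga4 had 8 and 2 over the control and RANKL groups. Itgam, the α chain of Mac-1, had 9 and 10 counts (0.427 and 2.19 CPM), and Itgb7 had 22 and 12 (2.29 and 2.22 CPM), with overlapping groups for both. Cd6, which encodes the receptor of ALCAM on T cells, was at 0 as well. Itgb1, the β1 integrin chain that epithelial cells also carry, had 134.8 ± 12.9 and 147.3 ± 16.6 CPM (SD, n = 4 each), with an interval of -0.08 to 0.37 for its log2 fold change.

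Syk, a tyrosine kinase that CEACAM20 and integrins can recruit, rose with an edgeR estimate of 2.22 ± 0.31 (SE). Its control libraries had 2.67, 3.49, 3.29 and 12.04 CPM and its RANKL libraries 9.69, 18.6, 16.7 and 18.1 CPM, so that the shallowest control library reached into the RANKL range. Afdn, which encodes afadin, the scaffold under nectins and JAM-A, fell by 0.34 on the log2 scale, from 203.6 ± 15.4 to 157.5 ± 16.0 CPM (SD, n = 4 each), a call that was lost without RANKL replicate 1. The tight junction scaffold gene Tjp1 had an estimate of -0.38 ± 0.16 (SE) and an adjusted p of 0.07 in edgeR. Muc1, a transmembrane mucin that ICAM1 can bind, was filtered out at 3 counts over the control and 31 over the RANKL group.

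**Figure D4:**
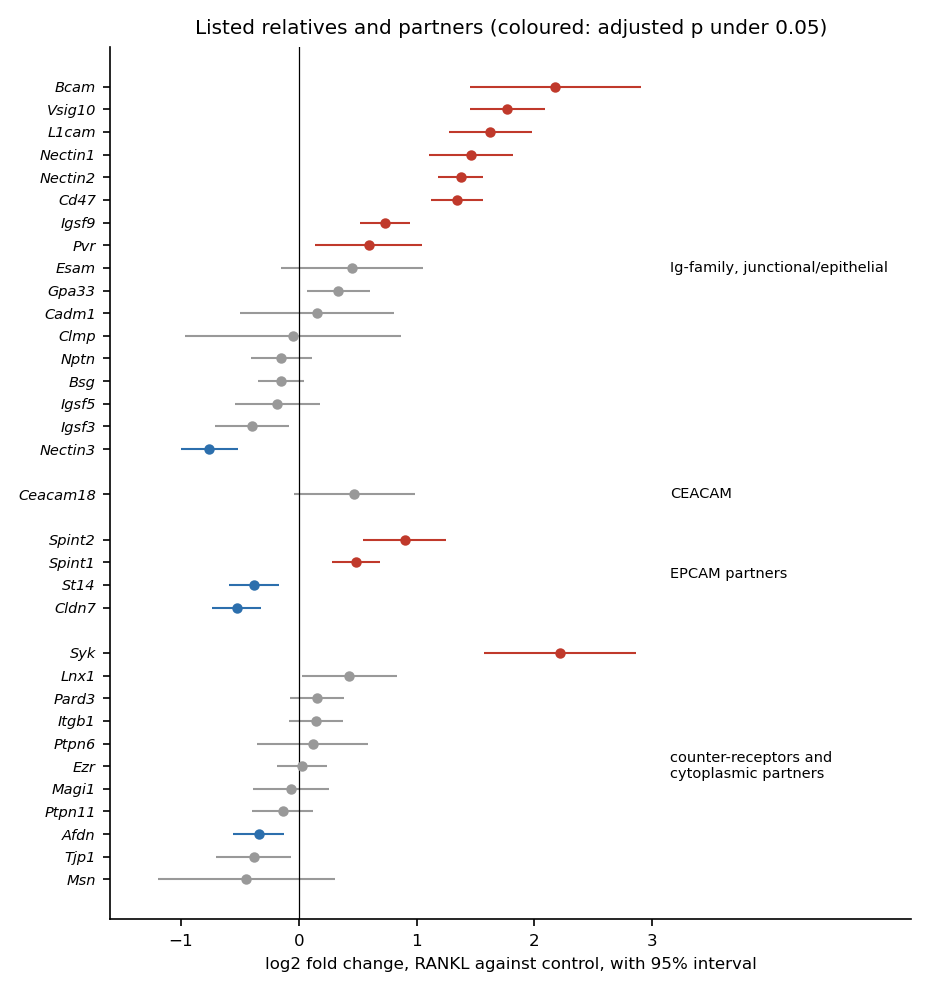
Log2 fold change with its unadjusted 95% interval (horizontal axis) for the tested relatives and partners reported here, grouped by list, from the edgeR fit over all genes. Red points rose, blue points fell and grey points did not pass the adjusted threshold. Points of the junctional Ig-family list run from Bcam at 2.18 to Nectin3 at -0.76, and most counter-receptors and partners lie near 0.

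Among 6647 genes at a mean of at least 20 CPM, the level of Vcam1 over the 8 libraries was most like that of Relb, a subunit of NF-kB (Pearson r of 0.997 on log2(CPM + 1)), and Bok (0.996). Icam1 was most like Irf1, a transcription factor of the interferon response (0.999), and Relb (0.999). Relb itself stood at 36.1 to 42.6 CPM in control and 358 to 455 CPM in RANKL libraries. Jaml was most like Dna2 (0.995) and Fgfbp1 (0.993), which had log2 fold changes of -0.92 and -1.56. F11r was most like Tmem176b (0.998) and Inf2 (0.997), with 1.97 and 2.65. The 8 libraries form 2 groups, so any gene with a clean difference between them has a high r, and these values are given as a description.

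Genes near the members on the chromosome were read as well, within 100 kb of the gene, a window chosen after values were seen. Jaml was the only gene called lower among the 5 tested in its neighbourhood, Jaml included, beside 12.4% called lower of all genes tested. Mpzl2, itself an Ig-family adhesion gene of epithelia, ends 25.2 kb before Jaml and rose from 114.6 ± 15.5 to 242.8 ± 19.95 CPM (SD, n = 4 each), with an estimate on the log2 scale of 1.09 ± 0.11 (SE). Scn2b, a sodium channel β subunit with an Ig domain, begins 9.2 kb beyond Jaml and rose from 40.2 ± 3.38 to 129.9 ± 4.43 CPM, or 1.69 ± 0.12. Mpzl3, which ends 1.7 kb before Jaml, and Tmprss4 did not pass the test, with adjusted p of 0.54 and 0.21 in edgeR.

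**Figure D5:**
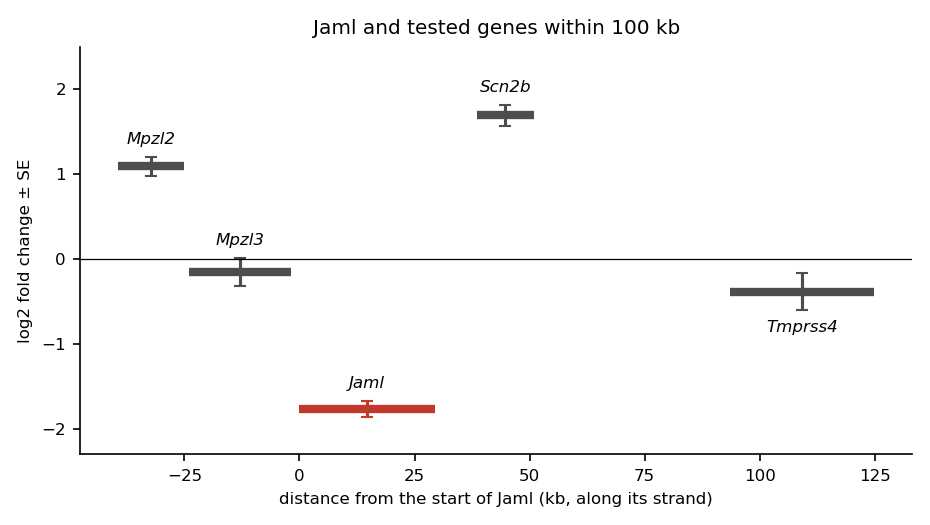
Log2 fold change, RANKL against control, with its SE (vertical axis) for Jaml and the 4 other tested genes within 100 kb, drawn as bars over their extent in kb from the start of Jaml along its strand (horizontal axis). Jaml lies at -1.76 between Mpzl2 at 1.09 and Scn2b at 1.69.

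Around Icam1, S1pr2 rose (1.10 ± 0.24 SE), Tyk2 rose (0.53 ± 0.15) and Mrpl4 fell (-0.62 ± 0.13). Near F11r, 0 of 6 tested neighbours were called, beside 25.9% of all genes tested. Nectin4 was filtered out there with the 8 counts given above.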

How the data were processed

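RNA of 4 control and 4 RANKL organoid libraries was made into QuantSeq forward 3′ libraries and read as single reads. The authors trimmed reads, removed those of abundant sequences, aligned the rest to GRCm38 (mm10) with STAR and counted them by strand per gene with featureCounts. The deposited values are these raw counts, with no normalization and no step to merge PCR copies. Groups and replicate numbers came from the sample titles.

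Counts were tested with edgeR 4.0.16 in R 4.3.3 (TMM, filterByExpr, quasi-likelihood test, RANKL against control) over 9971 genes with Benjamini-Hochberg adjustment and a threshold of 0.05. The code was tested on simulated data. An exact two-sided permutation test over 70 assignments of CPM was run for single genes. With 0 control counts, folds are given against a floor of 3 counts over the group and leave out counting error in the RANKL libraries. Floors and lower limits of these ratios cover counting error only. Pairs of libraries of a group differed by more than counting noise, so none were merged. Alternatives were DESeq2 1.42.0 size factors or Wald test, library totals, limma-voom (3.58.1), 2 filters, the replicate block and each library left out. Leaving out both shallowest libraries was added after the data were seen.

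The members and lists were chosen with earlier results of these data known. Named genes are the members, up to 6 called genes of each list by size of change with 5 CPM or more on average, and for each called member the 2 most similar genes with 20 CPM or more. The NF-kB consensus was planned as a promoter motif and the other 3 motifs were added later. Coordinates are from GENCODE M21 and promoter sequences from RefSeq. Protein motifs were not analysed here. Some listed or neighbouring genes are not reported here.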

Additional observations from a re-analysis of the deposited data

Results flagged for a closer look

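Of 40 groups of 4 libraries examined, 5 held a library whose gap to the nearest of the others took up most of the group's range, where chance gives about 1 in 20, or 2 groups. Ceacam1 was at 6.46 CPM in RANKL replicate 1, a library with 4 counts of it, and at 15.1 CPM or more in the other RANKL libraries. Nectin2 was at 208.3 CPM in control replicate 3, with the next library at 232.2 CPM. Spint2 was at 149.7 CPM in RANKL replicate 3, with the next at 187.3 CPM. Cldn7 was at 848.6 CPM in RANKL replicate 4, with the next at 1056 CPM. Syk was at 12.04 CPM in control replicate 4, the shallowest library, and at 3.49 CPM or less in the other controls.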

How the results depend on the processing

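Of 9 members, 4 were called under every alternative except the filter of at least 10 counts in every library, which removed Vcam1, Icam1, Ceacam1 and Ceacam20 and left 2 calls. Leaving out single libraries gave 4 calls each time, 13 to 17 calls among the listed relatives (15 with all libraries) and 1853 to 2601 among all genes (2587). The log2 fold change of Ceacam1 ran from -0.16 to 0.080 over these fits, was 0.080 without control replicate 3 and 0.047 without RANKL replicate 1, and was 0.0081 without both shallowest libraries (an alternative chosen after seeing the data). That of Ceacam20 ran from -0.0023 to 0.44, the negative value being that without control replicate 1. Neither gene was called in any fit. Replicate numbers showed no clear pairing of the libraries. Deviations of same-numbered libraries correlated at -0.01, -0.03, 0.10 and 0.04, and not every library correlated best with its own number. This check cannot exclude pairing, because counting noise in shallow libraries weakens such correlations. With the replicate block the counts were 4 members, 17 relatives and 2610 genes. Without a filter on low counts the median log2 fold change of all genes was -0.11. Depth limits Ceacam1 and Ceacam20, with 4 to 6 counts in the shallowest libraries, and the genes that were filtered out.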
